A study of Mus musculus with 12 samples.

Results

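Intronic m6A peaks are stretches of RNA inside annotated introns where an antibody against N6-methyladenosine (m6A) pulled down more fragments than the matched input held. They were taken as every row of the deposited knockout (KO) and wild-type (WT) peak lists that the authors annotated as intronic. The KO list held 2014 of them among 41153 peaks and the WT list 2047 among 36682 peaks, 4061 of 77835 in all. The tested cells were BV2 cells, an immortalised mouse microglial line, with Mettl3 knocked out and treated with bacterial lipopolysaccharide (LPS), and the comparison cells were WT BV2 cells given LPS. No cells without LPS were among the samples, so both lists describe stimulated cells. The labels describe 12 libraries, 3 replicates each of IP and input for both genotypes, but each genotype has 1 deposited list. The labels do not say whether the KO cells come from 1 clone or which part of Mettl3 was deleted. Their protocols mention a neuroblastoma culture, although every sample is titled BV2. Of the 12 microglia and macrophage markers examined, 11 had a peak of some class in each list, against 1 of 12 neuron and neuroblastoma markers, 1 of 6 oligodendrocyte markers and 0 of 6 astrocyte markers.

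METTL3 is the catalytic subunit of the complex that writes m6A on nascent RNA, together with METTL14 and WTAP. In mature mRNA the mark is known to be concentrated near stop codons and in 3′ UTRs. Introns are removed in the nucleus, so antibody signal over an intron comes from pre-mRNA, from a retained or alternative piece of the transcript, or from another gene that lies in the same stretch of genome. The libraries were made from polyadenylated RNA, which holds little intron sequence. LPS is sensed by TLR4 and switches on NF-kB, AP-1 factors and cytokine genes in microglia.

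The only sequences at hand were windows of 300 bases around RefSeq gene starts (assembly GRCm38.p6), and 12 KO and 12 WT intronic peaks reached into such a window on their own strand. GGACT, a common context of m6A, was searched on the strand of the peak and as AGTCC for the other strand. Of the windows with at least 30 bases under a peak, 2 of 13 held GGACT in the KO list and 1 of 9 in the WT list, and AGTCC was found in 2 of 13 and 1 of 9. The stretches that hold GGACT under the peak are printed with the motif in capitals, 5′ to 3′ on the strand of the peak, because they are the intronic peak sequences with the motif that had at least 30 bases inside a window. A WT peak of Galnt2l, with 25 bases inside the window of BC048644, held GGACT as well and is not printed. The first, chr10:22306726-22306755 on the plus strand, lies in the Raet1e intron shortly before the start of the noncoding RNA C920009B18Rik. It is under a peak of 895 bases called at the same position in both lists. That peak reaches over the start and the printed stretch does not, so the label of its sequence describes the peak. The second, chr8:70506377-70506406 on the minus strand, lies near the start of Rex1bd under a peak of the KO list.
Raet1e, over the start of C920009B18Rik: tggcaccggatggGGACTggcctggtataa
Rex1bd: ggacctaggttgtGGACTtggtcggaagag
The Raet1e peak had a log2 enrichment of 1.05 in the KO list and 1.42 in the WT list. The Rex1bd peak had 0.66 in the KO list. GGACT occurred in 13% and 10.7% of all 32544 windows over the same stretch of the window, and in 26.3% of whole windows, so its presence is a description of these 2 places and not a site.

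The intronic class was small and weak in both lists. Intronic peaks were 4.89% of KO peaks (95% Wilson interval 4.69 to 5.11%) and 5.58% of WT peaks (5.35 to 5.82%). All enrichments are log2 ratios of IP to input as the authors deposited them, and intervals cover the counting of peaks only. The median intronic peak stood at 0.66 in the KO list (order-statistic interval 0.65 to 0.67) and 0.75 in the WT list (0.73 to 0.76). Peaks of the other classes had medians of 0.70 in the KO list and 0.84 in the WT list. Exonic peaks were weaker than intronic ones, at 0.55 in the KO list and 0.67 in the WT list, while exons of noncoding RNAs were the strongest of the 5 large classes at 0.96 and 1.26.

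Strong peaks, here those of at least 4-fold, were rare in introns. They were 53 of 2014 intronic peaks in the KO list (2.63%, interval 2.02 to 3.43%), where 3.93% of all peaks reached 4-fold. In the WT list they were 106 of 2047 (5.18%, interval 4.30 to 6.22%), where 11.7% of all peaks did. The intronic share was therefore below the whole list in both genotypes, and it was lower in the KO list than in the WT list, as it was for each of the other large classes. Among 4-fold peaks alone the order of the lists turned, with introns holding 3.28% of such KO peaks and 2.46% of such WT peaks, and these intervals overlap. Each list has its own IP efficiency and scaling, so values set side by side describe the lists and test nothing about the genotypes. In bulk RNA, a lower signal in all cells and its absence from some of the cells cannot be told apart.

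**Figure D1:**
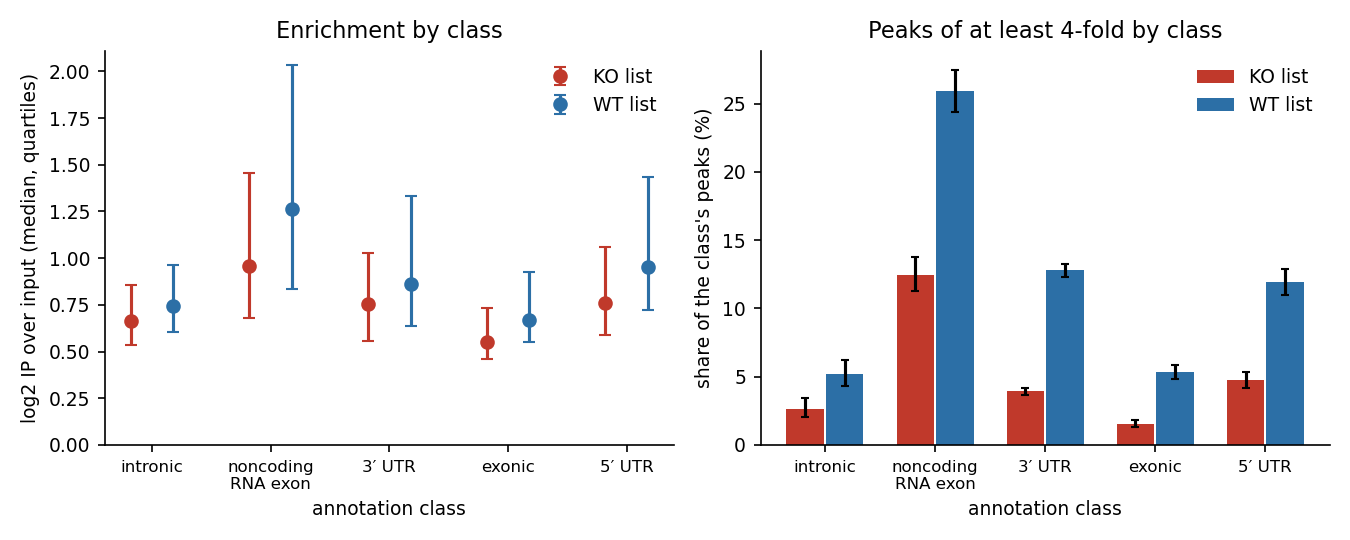
Left, log2 enrichment of IP over input by annotation class, as medians (points) with lower and upper quartiles (bars), KO list left of WT list. Right, the share of each class's peaks of at least 4-fold, with 95% Wilson intervals. The intronic bars, 2.63% in the KO list and 5.18% in the WT list, are below those of 3′ UTRs, 5′ UTRs and noncoding RNA exons in both lists.

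Intronic peaks were short. Their median span was 150 bases in each list, against 600 bases for other KO peaks and 644 bases for other WT peaks, whose spans include spliced-out introns. Spans of at most 150 bases made up 57.5% of intronic KO peaks and 51.7% of intronic WT peaks, and 10.9% and 10.8% of the other peaks. Spans were whole multiples of 25 bases for 93.5% of intronic KO peaks and 93.8% of intronic WT peaks, so their ends lie on a grid of the peak caller rather than at measured borders. Fewer intronic peaks had an adjusted p of at most 0.001, 49.3% in the KO list and 52.0% in the WT list, against 78.6% and 83.0% of other peaks. Enrichment was higher in longer intronic peaks up to 1000 bases. The median was 0.61 in the KO list and 0.70 in the WT list for spans of at most 100 bases, and 0.95 and 0.99 for spans above 500 and up to 1000 bases. Above 1000 bases it was 0.88 in the KO list and 1.30 in the WT list.

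A few intronic peaks had very long spans, measured between their outer ends. How much of each span carries signal was not examined. The longest KO peaks lay in Ccbe1, a secreted factor of lymphatic growth (90980 bases, log2 2.06), Inpp4a, a phosphoinositide phosphatase (45731 bases, 0.77), and Lamb3, a laminin chain (44188 bases, 0.60). The longest WT peaks lay in Wwox, an oxidoreductase gene (94597 bases, 1.98), Ccbe1 (90980 bases, 2.43) and Igf2bp2, an m6A reader (35206 bases, 0.61). The Ccbe1 peak had the same ends in both lists. Other RefSeq genes lay under 3 of these peaks: the noncoding RNA 4930439A04Rik in Inpp4a, Hsd11b1 in Lamb3 and the noncoding RNA Gm16116 in Wwox.

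Along the host gene, intronic peaks were tilted towards the 3′ side but were not concentrated in its last 10% as the other classes were. Of 10 equal parts of the gene span, the first held 6.41% of intronic KO peaks (interval 5.42 to 7.56%) and 8.35% of intronic WT peaks (7.23 to 9.63%). The ninth held 13.9% in each list (12.5 to 15.5% in both). The last 10% of the gene span held 9.33% of intronic KO peaks and 9.09% of intronic WT peaks, against 39.1% and 40.0% of other peaks. The median distance to the gene's end was 11325 bases for intronic KO peaks and 11672 bases for intronic WT peaks, and 2375 and 1954.5 bases for other peaks. Within 2000 bases of the gene's start lay 10.1% of intronic KO peaks and 10.5% of intronic WT peaks. These had medians of 0.71 in the KO list and 0.81 in the WT list, against 0.66 and 0.74 for intronic peaks farther in. Both shares of place follow in part from the label itself, since last exons hold no intron.

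**Figure D2:**
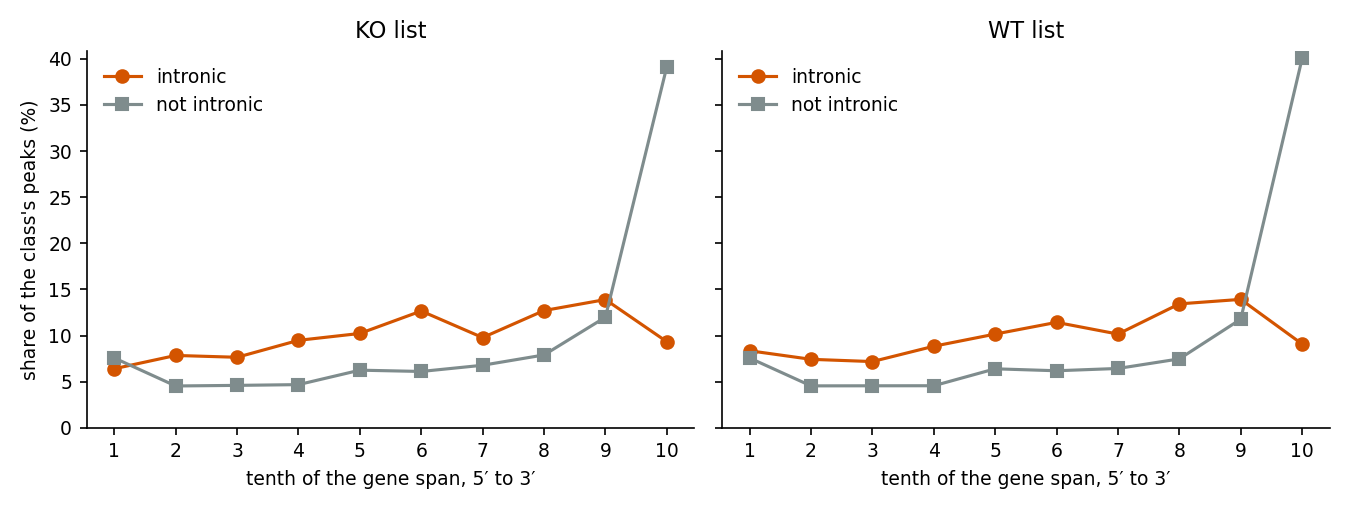
Share of peaks (%) in each of 10 equal parts of the host gene's span, from the 5′ end to the 3′ end, KO list left and WT list right. Intronic peaks (orange circles) are lowest towards the 5′ end and reach 13.9% in the ninth part in each list, with 9.33% in the last part in the KO list and 9.09% in the WT list, while other peaks (grey squares) reach 39.1% and 40.0% there.

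The strongest intronic peak of the KO list lay in Tm9sf2, which encodes a membrane protein of the endosome and Golgi. It spanned 375 bases (14:122122253-122122627, plus strand) with a log2 of 7.00 and overlapped no WT peak. It lay wholly over the pseudogene Gm17082. A second Tm9sf2 peak of 522 bases, 3243 bases away and over the pseudogene Gm6254, was called at the same position in both lists with 2.94 in the KO list and 3.07 in the WT list. The 3′ UTR peaks of Tm9sf2 were weak in both lists, at 0.40 and 0.72 in the KO list and 0.60 and 0.58 in the WT list. The gene's strong peaks thus lay over pseudogenes in its introns, and its peaks of the 3′ UTR class were not strong.

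Some strong peaks were alike in the lists. In Klf3, a zinc-finger repressor gene, the peak had 4.72 in the KO list, 951 bases into the gene, and 4.55 in the WT list, 901 bases into it, and it lay over RefSeq Gm38457, which is annotated on the opposite strand. In Nxpe3, a neurexophilin-domain gene, a peak over the pseudogene Gm17809 had 4.58 in the KO list and 4.28 in the WT list. In Cep128, a component of centriole appendages, the peak had 4.30 in the KO list and 3.85 in the WT list. In Dcun1d2, a cofactor of neddylation, it had 3.42 in the KO list and 4.71 in the WT list. In 3 of these 4 genes the KO and WT values were within 0.5 of each other, and in Dcun1d2 the WT value was the higher one.

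Other strong KO peaks met WT peaks of another annotation or much lower ones. The peak in Dlx4, a homeobox gene, had 3.70 in the KO list and overlapped an exonic WT peak of 3.76. That in Cul9, a cullin family gene, had 3.57 in the KO list and overlapped an exonic WT peak of 2.75. Spag6l, whose protein sits in the core of motile cilia, had 3.78 in the KO list over RefSeq Rpl31-ps12 and no WT peak. Lrrc20, a leucine-rich repeat gene, and Adhfe1, a mitochondrial alcohol dehydrogenase family gene, are given with the pairs.

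Of the 10 strongest WT peaks, 6 had no overlapping peak in the KO list. Vti1a, a SNARE of the Golgi, led with 5.14 in the WT list. Ankrd17, an ankyrin-repeat gene, had 4.62, Zfyve28, a FYVE-domain regulator of receptor traffic, 4.39, and Nav2, a neuron navigator gene, 4.29 in the WT list. Antxr1, an anthrax toxin receptor, had 4.25 and Itpk1, an inositol phosphate kinase, 4.17 in the WT list. None of these 6 overlapped a KO peak of any class. The Ankrd17 and Nav2 peaks lay 100 and 350 bases from another WT peak of the 5′ UTR class, that of Itpk1 lay 125 bases from an exonic one, and the Antxr1 peak touched or overlapped one of the 5′ UTR class. Sult2b1, a cholesterol sulfotransferase gene, had 4.25 in the WT list and a KO peak of 1.29 at nearly the same place.

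Of the 4-fold intronic peaks of the KO list, 46 of 53 shared bases with a WT peak of any class and strength (86.8%, interval 75.2 to 93.5%). Of those of the WT list, 54 of 106 did so with a KO peak of any class and strength (50.9%, interval 41.6 to 60.3%). Over all peaks, strong or not, the shares were 72.9% in the KO list and 77.2% in the WT list. The 7 strong KO peaks with no WT partner lay in Tm9sf2, Spag6l, Srsf3, Brinp3, Heph, Nmnat3 and Spg20. Brinp3, a neural gene, had 2.58 and Heph, a copper-dependent ferroxidase, 2.33 in the KO list, the Heph peak over the pseudogene Rpl17-ps8. The WT list had 52 strong peaks with no KO partner. A peak missing from a list is one that was not called there, and the depth of the libraries is unknown.

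Another RefSeq gene lay under 279 of 2014 intronic KO peaks (13.9%) and 267 of 2047 intronic WT peaks, and these were the stronger ones. Their median was 0.78 in the KO list and 0.91 in the WT list, against 0.65 and 0.72 for intronic peaks with no other gene beneath. Of them 7.89% in the KO list (interval 5.26 to 11.7%) and 13.9% in the WT list (10.2 to 18.5%) reached 4-fold, against 1.79% (1.26 to 2.52%) and 3.88% (3.07 to 4.88%) of the rest. Among the strong intronic peaks, 22 of 53 in the KO list and 37 of 106 in the WT list lay over another gene. They also spanned more, with medians of 275 bases in the KO list and 285 bases in the WT list against 150 bases in each for the rest. Where the other gene's strand was in the start-site table, it matched the strand of the peak in 55 of 158 cases in the KO list and 60 of 145 in the WT list.

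Pseudogenes, copies of other genes that mostly sit in introns and between genes, were the largest such group. They lay under 120 intronic KO peaks and 115 intronic WT peaks, with medians of 0.80 and 1.01. Of these peaks 114 in the KO list and 104 in the WT list lay wholly inside the pseudogene. Fragments of a parent gene's mature mRNA can be placed on such a copy, so all values over pseudogenes are uncertain as to the gene they come from. Examples that were close in both lists were Gm6254 in Tm9sf2, given already, and Gm6363 in Hlcs, a biotin ligase gene, with 2.87 in the KO list and 2.75 in the WT list. Gm40815 in Pkd1l1, a polycystin family gene, had 2.39 in the KO list and 2.80 in the WT list. An intronic peak over a pseudogene overlapped an intronic peak of the other list in 65.8% of cases in the KO list and 66.1% in the WT list, against 26.2% and 25.8% for intronic peaks over no other gene.

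Small RNA or antisense RNA genes lay under 4 intronic KO peaks and 5 intronic WT peaks. The Zfhx2 peak among the WT ones lay over the antisense RNA Zfhx2os of 2784 bases, which is not a small RNA. In Rpl5, a ribosomal protein gene, a peak of 125 bases over the 132-base snoRNA Gm22270 had the same ends in both lists, with 0.50 in the KO list and 1.25 in the WT list. In Cct6a, a chaperonin subunit gene, a KO peak of 135 bases covered the 135-base snoRNA Gm23245 at 1.44. In Rcc1, a regulator of Ran, a KO peak of 200 bases lay over the snoRNA Snora73b at 0.58. In Fbf1, a gene of centriole fibres, a WT peak of 125 bases over the 127-base guide RNA Gm26413 had 3.03 and overlapped a KO peak of the 5′ UTR class at 2.49. In Wars, a tRNA synthetase gene, a WT peak of 100 bases lay over the snRNA Gm22079 at 1.32. In these 5 cases peak and small RNA had nearly the same extent. No intronic peak of either list overlapped any of the 2743 miRNA records in the RefSeq table.

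Host genes of extreme annotated length carried peaks that lie over other genes. Galnt2l, whose annotated span is 4434882 bases, hosted the most intronic peaks, 20 in the KO list (median 1.28, range 0.40 to 2.73) and 16 in the WT list (median 1.84, range 0.75 to 3.96). All 20 in the KO list and 15 of 16 in the WT list lay over other RefSeq genes such as Abcb10, Nup133, Car5a and the noncoding RNA Gm26812. Fgfr2, a growth factor receptor gene given a span of 2960900 bases, hosted 6 KO and 4 WT peaks, and all of these lay over other genes, among them the pseudogenes Gm5903 and Gm16477. Genes with spans above 1 Mb held 28 intronic peaks in the KO list and 22 in the WT list.

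Among shorter hosts, Gm49336, with a span of 46226 bases, had 7 KO and 2 WT peaks, all over Nupl1, a nuclear pore gene. Ankrd11, a chromatin regulator, had 6 intronic peaks in each list, at 0.47 to 1.05 in the KO list and 0.54 to 1.62 in the WT list, all over the noncoding RNA Gm39273, which is annotated on the opposite strand. Clcn3, a chloride/proton exchanger gene, had 6 in the KO list at 0.61 to 0.97 and 4 in the WT list at 0.46 to 0.59. Zranb3, a DNA translocase gene, had 6 in the KO list at 0.62 to 0.99 and 3 in the WT list at 0.69 to 0.86. The WT list had more in Ikbkb (3 KO, 7 WT), in Tulp4, a tubby-like gene (2 KO, 6 WT), in the kinase gene Map3k13 (1 KO, 6 WT) and in Ntng2, a netrin family gene (0 KO, 6 WT). The Ntng2 peaks, at 0.59 to 1.09, lay over the noncoding RNA 6530402F18Rik of the same strand, 5 of the 6 wholly and the longest in a small part.

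Intronic peaks were shared between the lists far less often than other peaks. At least 1 base on the same strand was shared with a WT peak by 924 of 2014 intronic KO peaks (45.9%, interval 43.7 to 48.1%), against 72.9% of all KO peaks. With a KO peak it was shared by 1004 of 2047 intronic WT peaks (49.0%, interval 46.9 to 51.2%), against 77.2% of all WT peaks. Partners of the same class were fewer still. An intronic WT partner was found for 600 intronic KO peaks (29.8%), where 67.2% of all KO peaks had a partner of their own class, and an intronic KO partner for 598 intronic WT peaks (29.2%), where 72.2% of all WT peaks did. The other 324 KO and 406 WT peaks that overlapped met only a peak annotated to another class. The median span of these partners was 2347 bases for KO peaks and 2145 bases for WT peaks, which can reach across an intron.

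The low overlap was seen at each span and strength examined. For spans above 150 and up to 300 bases, 117 of 382 intronic KO peaks (30.6%) and 137 of 442 intronic WT peaks had a partner of their class, against 67.7% and 72.4% of other peaks. For spans above 500 and up to 1000 bases the shares were 59.3% and 56.3%, against 79.5% and 80.9%. At log2 values between 0.5 and 0.75 they were 24.5% and 23.9%, against 63.5% and 68.6%. Above a log2 of 2 they were 73.6% and 45.3%, against 87.7% and 82.4%. The intronic share was below that of other peaks in each of the 6 span bins and each of the 6 log2 bins of both lists.

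**Figure D3:**
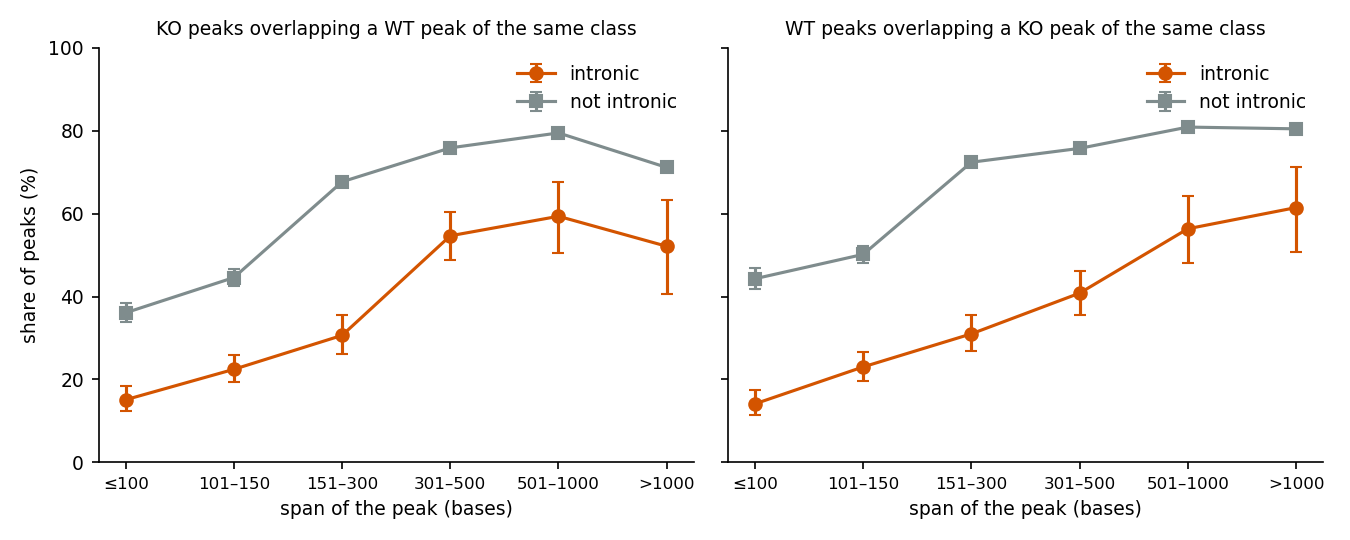
Share of peaks (%) that overlap a peak of the same class in the other list, by span of the peak, with 95% Wilson intervals. KO peaks are on the left and WT peaks on the right. In every span bin the intronic points (orange) lie below those of other peaks (grey), from 15.1% and 14.1% at up to 100 bases.

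Intronic peaks with no partner were shorter in both lists than those with an intronic partner, and in the KO list they were also weaker. Those with no overlap had a median of 0.63 in the KO list and 0.76 in the WT list, against 0.74 and 0.80 for those with an intronic partner, with intervals that overlap in the WT list. Those that met only a peak of another class had a median of 0.66 in each list, below unshared peaks in the WT list (interval 0.65 to 0.69 against 0.74 to 0.77). Only 7 of 1090 unshared KO peaks reached 4-fold (0.64%), against 52 of 1043 unshared WT peaks (4.99%). The median span of unshared peaks was 125 bases in the KO list and 150 bases in the WT list, against 275 bases for peaks with an intronic partner and 125 bases for those that met only another class, in each list.

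Where the same intronic place was called in both lists, the KO and WT values were close. An intronic KO and an intronic WT peak that were each other's longest overlap made 575 pairs. The KO value was the lower one in 326 of 575 (56.7%, interval 52.6 to 60.7%), against 70.3% of the 26133 pairs of all classes. The median difference, KO minus WT, was -0.03 (interval -0.06 to -0.01) for intronic pairs and -0.13 for pairs of other classes. Differences of -1 or lower were 9 of 575 intronic pairs (1.57%, where 5.34% of all pairs had them), and differences of 1 or higher were 10 of 575 (1.74%, where 0.279% of all pairs had them). Relative to the median difference of all pairs, the intronic pairs stood 0.09 higher, so the sign of their shift depends on how the lists are scaled.

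Among places called in both lists, the gap to other classes was widest in strong pairs. Strong WT peaks lacked a KO partner of their own class more often in introns than in other classes. Peaks without a partner do not enter these medians. With a mean log2 of the pair above 1.5, the median difference was -0.15 over 80 intronic pairs (interval -0.39 to 0.11) and -0.72 over 4418 other pairs (-0.74 to -0.71). The KO value was lower in 58.8% of these intronic pairs (interval 47.8 to 68.9%) and in 89.2% of the others (88.3 to 90.1%). Span moved with this too. Over pairs in which the longer peak spanned more than 500 bases the medians were -0.14 for intronic pairs (interval -0.27 to -0.04) and -0.20 for others, and for shorter pairs all medians lay between -0.07 and -0.01. Of the 24 intronic pairs at 4-fold or more in both lists, 15 lay over another RefSeq gene. The 40 strong pairs over no other gene had a median difference of -0.07 (interval -0.39 to 0.22), and 21 over pseudogenes -0.13 (-0.41 to 0.30).

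**Figure D4:**
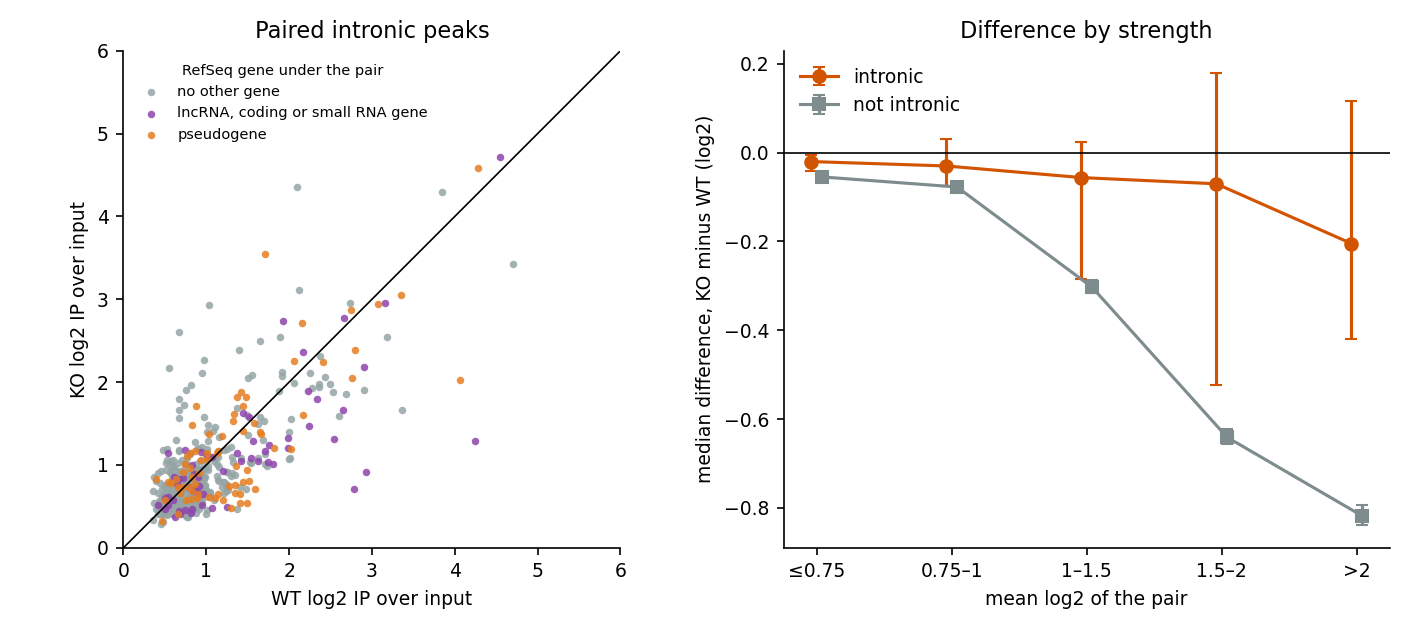
Left, log2 enrichment of the 575 paired intronic peaks, KO value against WT value, coloured by the kind of other RefSeq gene under the pair, with the line of equal values. Right, median difference KO minus WT by the mean log2 of the pair, with order-statistic intervals. Intronic pairs (orange) stay near 0 with wide intervals, at -0.20 above a mean of 2, while other pairs (grey) reach -0.82.

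The pairs that differed most went both ways. The lowest KO values relative to WT were in Sult2b1, with 1.29 in the KO list and 4.25 in the WT list at a place inside RefSeq Lmtk3 and Gm5897. Zfp384, a zinc-finger gene, had 0.70 in the KO list and 2.79 in the WT list over the noncoding RNA 4930557K07Rik. Nxpe3 had a second peak over the pseudogene Gm17809 with 2.02 in the KO list and 4.07 in the WT list. Rprd1b, a gene that binds the RNA polymerase II tail, had 0.92 in the KO list and 2.93 in the WT list at a place inside RefSeq Tgm2. Rad18, a DNA repair ubiquitin ligase gene, had 1.66 in the KO list and 3.36 in the WT list, the one of these 5 pairs with no other RefSeq gene beneath. The Zfp384 peaks spanned 775 bases in the KO list and 150 bases in the WT list, so their values do not cover the same RNA, and the other 4 pairs spanned at most 1200 bases.

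The highest KO values relative to WT were in Lrrc20, with 4.36 in the KO list and 2.10 in the WT list, and in Scaf11, a splicing-associated factor gene, with 2.61 in the KO list and 0.67 in the WT list. Cyb5r4, a reductase gene, had 2.94 in the KO list and 1.04 in the WT list. Adhfe1 had 3.54 in the KO list and 1.71 in the WT list over the pseudogene Gm6161. Stap1, an adaptor protein gene of immune cells, had 2.17 in the KO list and 0.55 in the WT list. The Cyb5r4 peak spanned 175 bases in the KO list and 725 bases in the WT list, and another WT peak of 2.98 lay 100 bases from it. The other 4 pairs differed less in span.

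Fewer host genes were shared between the lists than genes with any peak, although nearly all hosts had a peak of some kind in both. There were 1499 hosts in the KO list and 1535 in the WT list, 11.5% of the genes with a peak in each list. Of these, 732 hosted an intronic peak in both lists, 767 in the KO list only and 803 in the WT list only. The shared hosts were 48.8% of the KO hosts and 47.7% of the WT hosts, where 94.6% of all KO genes with a peak and 92.2% of all WT genes also had one in the other list. Hosts of the KO list only had some WT peak in 97.0% of cases, and hosts of the WT list only had some KO peak in 98.1%. An intronic peak in 1 list only was therefore mostly a difference within a gene that both lists call.

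Most hosts carried a single intronic peak, 76.7% in the KO list and 77.3% in the WT list. A 3′ UTR peak was called as well in 94.5% of KO hosts and 95.1% of WT hosts. The strongest intronic peak was weaker than the gene's strongest other peak by a median difference of -0.32 in the KO list and -0.38 in the WT list. It was the gene's strongest peak in 20.5% and 23.9% of hosts with both. A maximum rises with the number of peaks it is taken over, and most hosts had a single intronic peak. Set against the median of the gene's other peaks, the strongest intronic peak differed little. That median difference was 0.016 in the KO list (interval -0.003 to 0.032) and -0.022 in the WT list (-0.042 to -0.003). Another peak of the same gene lay within 500 bases of 47.8% of intronic KO peaks and 45.0% of intronic WT peaks. Genes with intronic peaks and no other were 54 in the KO list and 47 in the WT list. Their intronic peaks were stronger, with medians of 0.90 over 84 KO peaks and 1.04 over 72 WT peaks. Galnt2l, whose peaks nearly all lay over other genes, gave 20 of these KO peaks and 16 of these WT peaks. Longer genes were hosts more often: 4.94% of KO genes and 4.50% of WT genes with spans of at most 10000 bases, and 19.0% and 19.7% of those above 100000 bases.

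Splicing regulators, many of which are known to control their own RNA through retained introns or poison exons, hosted intronic peaks in a larger share than all genes with a peak. The 29 genes examined, all with a peak in each list, also included Mat2a and Ogt, which were taken for their regulated introns. Both were hosts in the KO list only. Of the 29, 15 were hosts in the KO list (51.7%, interval 34.4 to 68.6%) and 12 in the WT list (41.4%, interval 25.5 to 59.3%). The share among all genes with a peak was 11.5% in each list. Their median gene span was 20037 bases, and genes with spans of 10000 to 30000 bases were hosts in 11.8% of KO cases and 12.3% of WT cases. A wider set, the genes that the lists assign to the KEGG spliceosome pathway, looked at after these values were seen, were hosts in 28 of 127 KO cases (22.0%) and 30 of 125 WT cases (24.0%). Transcript levels were not analysed here, and the part of abundance in these shares was not tested.

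Their peaks were not strong. The 24 KO peaks had a median of 0.61 (range 0.33 to 2.82) and the 21 WT peaks 0.70 (range 0.46 to 1.57), close to the medians of all intronic peaks, 0.66 and 0.75. Hosts in both lists were 11: Srsf3, Srsf5, Tra2a, Clk1, Clk4, Srrm1, Snrnp70, Luc7l, Rbm5, Hnrnph1 and Tia1. Mat2a, Ddx5, Son and Ogt were hosts in the KO list and Srsf4 in the WT list. In Clk1, a kinase of SR proteins, the paired peak had 0.61 in the KO list and 0.83 in the WT list. In Snrnp70, a U1 snRNP protein gene, the paired peaks had 0.76 and 0.56 in the KO list and 0.50 and 0.52 in the WT list, 2 of 4 KO peaks having a partner.

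In Srsf3, an SR protein gene, the peak near the 3′ part of the gene was alike in the lists, with 0.53 in the KO list and 0.49 in the WT list. A second Srsf3 peak of 100 bases, 200 bases into the gene, had 2.82 in the KO list and no WT partner. Hnrnph1, a G-run binding splicing factor gene, had 1.03 in the KO list and 0.51 in the WT list at the same place. Tra2a, a splicing activator gene, had 1 KO peak of 0.83 that overlapped WT peaks of 0.71 and 0.70, and 2 further WT peaks of 0.72 and 1.16. Mat2a, the S-adenosylmethionine synthetase gene, had a KO peak of 0.69, 411 bases from the gene's start. It lay over the noncoding RNA Particl of the opposite strand and overlapped a WT peak of the 5′ UTR class at 1.33. Neither list had another intronic peak in Mat2a. In Rbm5, a tumour suppressor splicing factor gene, the 4 KO peaks, at 0.45 to 0.75, had no WT partner of any class, and the WT list had 2 of its own at 0.46 and 0.72. The WT peak of 0.72 directly adjoined the KO peak of 0.75 without sharing a base. Clk4, a kinase related to Clk1, had 0.61 in the KO list and 1.21 in the WT list at neighbouring places that did not overlap. The RNA-binding protein gene Tia1 had 0.80 in the KO list and 1.40 and 0.48 in the WT list. The hosts found in 1 list only were weak in the KO list, with Ddx5, an RNA helicase gene, and Ogt, the O-GlcNAc transferase gene, both at 0.53 and Son, a speckle protein gene, at 0.55. Srsf4, another SR protein gene, had 1.57 in the WT list.

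**Figure D5:**
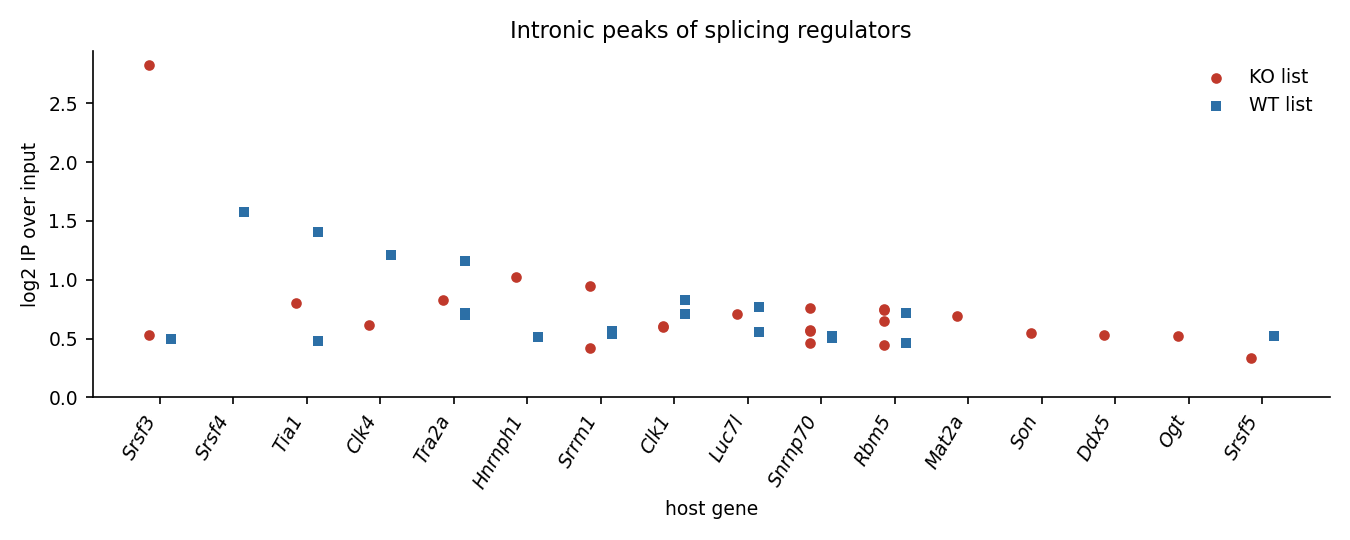
Log2 enrichment of each intronic peak in the 16 listed genes (splicing regulators, Mat2a and Ogt) that host one in either list. KO peaks (red circles) are left of WT peaks (blue squares) for each gene, ordered by the highest value. Most lie between 0.4 and 1, and the KO peak of Srsf3 at 2.82 stands above the rest.

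Genes of the m6A machinery were hosts in 8 of 28 cases in the KO list (28.6%, interval 15.3 to 47.1%) and 5 of 28 in the WT list (17.9%, interval 7.88 to 35.6%), against 11.5% of all genes with a peak in each list, which lies inside the WT interval. Among writers, Mettl5 and Zcchc4, which methylate ribosomal RNA, had pairs with 0.91 and 0.72 in the KO list and 0.57 and 0.70 in the WT list. Each had a further KO peak with no WT partner, at 0.73 in Mettl5 and 1.35 in Zcchc4. Mettl16, which methylates U6 snRNA and Mat2a, had a KO peak of 0.57, and Pcif1, the cap-adjacent methyltransferase, one of 0.56. Among readers, Ythdc1 of the nucleus (0.63), Hnrnpa2b1 (0.53) and Prrc2a (0.81) were hosts in the KO list, Igf2bp3 (0.77 and 1.50) and Elavl1 (0.92) in the WT list, and Igf2bp2 in both, with 0.48 and 0.49 in the KO list and 0.61 in the WT list at other places. The Pcif1 peak overlapped a WT peak of the 5′ UTR class at 0.71 and the Ythdc1 peak an exonic WT peak at 1.13. The weaker Igf2bp3 peak overlapped a KO peak of the 3′ UTR class at 0.55. The other machinery peaks without an intronic partner overlapped no peak of the other list. Mettl3 itself had UTR peaks and no intronic peak in either list, which does not check the knockout.

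Genes of LPS sensing and NF-kB were hosts in 4 of 29 cases in each list (13.8%, interval 5.50 to 30.6%), a share near the 11.5% of all genes with a peak. Ikbkb, the kinase that marks IkB for removal, had its strongest peak in the 5′ part of the gene, at 1.36 in the KO list and 1.51 in the WT list. A further 2 places were paired at 0.90 and 0.55 in the KO list and 0.78 and 0.57 in the WT list, and the other WT peaks were at 0.47 to 0.87. Nfkb1, which encodes the p105 precursor, had 1.14 in the KO list and 0.54 in the WT list at its paired place, over the noncoding RNA Gm46827 of the opposite strand, and 3 further WT peaks of 0.46 to 0.86. Chuk, the partner kinase, had 0.57 in the KO list and 0.81 in the WT list. Its peak spanned 2507 bases in the KO list and 175 bases in the WT list, so the values do not cover the same RNA. The authors' adjusted p for IP over input was above 0.05 for this KO peak and for the Ikbkb KO peak of 0.55. Traf6, a signalling ligase, had 0.57 in the KO list, and Irak2, a receptor kinase, 1.25 in the WT list.

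LPS-induced cytokines and mediators hosted none, in 0 of 17 genes with a KO peak and 0 of 20 with a WT peak, where a count of 0 allows up to 18.4% and 16.1% (upper limits of the intervals). These genes are short, with median spans of 4607 bases among those in the KO list and 4674 bases among those in the WT list, and 4.94% and 4.50% of all genes of at most 10000 bases were hosts. The BATF and AP-1 factors were hosts in 0 of 13 cases in the KO list and 0 of 14 in the WT list, Batf included, with upper limits of 22.8% and 21.5%. The long noncoding RNAs were hosts in 0 of 7 cases in each list, with an upper limit of 35.4%. These limits all lie above the 11.5% of all genes with a peak, so the counts do not set these lists apart from it. Of 11 microglia and macrophage markers with a peak, 3 were hosts in the KO list (interval 9.75 to 56.6%) and 1 in the WT list (1.62 to 37.7%), intervals that both hold the 11.5% of all genes. Ptprc, the CD45 phosphatase, had 0.77 in the KO list and 0.65 in the WT list at places that overlapped in part, and a further WT peak of 0.69. Trem2, a lipid receptor of microglia (0.65 and 0.73), and Csf1r, the receptor microglia need to survive (0.76), were hosts in the KO list.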

How the data were processed

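MeRIP-seq libraries (m6A IP and input) of KO and WT BV2 cells under LPS were made by the authors from poly(A) RNA with strand marking, per the labels' protocols. Tools named in the submitters' processing notes are HISAT2, StringTie, HOMER, edgeR, fastp and FastQC, without role or version. The sources used here do not give the peak caller, the genome build or whether replicates were pooled. Per the file headers, each deposited peak has a p-value, an adjusted p-value, the authors' log2 ratio of IP to input, a class and a gene. No per-library values entered, depth is unknown, and with 1 list per genotype no test of the genotypes was made.

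Starts were counted from 0 in the files (10284 peaks begin at their gene's start once 1 is added), and positions are printed from 1 as deposited. Of 2302 host genes, 2292 were found by symbol in RefSeq GRCm38.p6; each overlapped its position there and 1152 shared a start or end, so its genes and start-site sequences were placed under the peaks. RefSeq records that contain the whole host gene were left out, and the strand of pseudogenes is not in the tables used. Overlaps (at least 1 base, same strand) used bedtools 2.31.1; pairs are each other's longest overlap. Shares carry 95% Wilson and medians order-statistic intervals. Code was tested on simulated peaks. Python 3.11.15, pandas 2.3.3, SciPy 1.17.1 and matplotlib 3.10.9 were used.

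The members, gene lists and comparisons were chosen with earlier results of these data known. Named are, per list, the 10 strongest intronic peaks, the 5 hosts with most (ties included), the 5 strongest without partner and the 3 longest, the 5 pairs with the largest difference each way, and list members that host a peak; genes named with peaks over other genes, and Nmnat3 and Spg20, were chosen after their values were seen. Sequences and motifs were read only where a peak lies inside a start-site window, and were not analysed elsewhere.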

Additional observations from a re-analysis of the deposited data

How the results depend on the processing

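No paired analysis was possible because each genotype has 1 peak list and no per-replicate values. Of 99 alternative values for 13 results, 57 kept within the interval or within 1.5 times the main value. Some of these could not move. All intronic peaks lay inside their gene, so keeping only such peaks repeats their medians, 4-fold shares, pairs and hosts. Equal numbers of peaks keep the whole WT list, so its share, median and 4-fold share repeat as well. The 2 settings that leave out intronic peaks over other RefSeq genes or in hosts above 1 Mb were chosen after seeing the data, and leaving out the long hosts moved no result. When peaks needed an adjusted p no higher than 0.001, the intronic share was 3.13% in the KO list and 3.57% in the WT list, the median log2 0.68 and 0.81, the 4-fold share 5.34% and 9.96%, the overlap 49.2% and 52.5%, and the hosts 354 in both lists, 472 in the KO list only and 533 in the WT list only. With spans of at most 1000 bases the share was 7.73% and 8.94%, the overlap 32.2% and 35.0%, and the WT 4-fold share 4.23%. With equal numbers of peaks the KO share was 4.00%, its median 0.68, its 4-fold share 3.61%, and the overlap 49.8% in the KO list and 43.2% in the WT list. Among 4-fold peaks the share was 3.28% and 2.46%, with 25 hosts in both lists, 23 in the KO list only and 70 in the WT list only. Counting each gene once, 11.5% of genes in each list were hosts. A reciprocal overlap of 50% gave 21.9% and 22.4%, and an intronic partner 29.8% and 29.2%. Without peaks over other RefSeq genes the share was 4.24% and 4.89%, the median 0.65 and 0.72, the 4-fold share 1.79% and 3.88%, and the overlap 42.6% and 46.5%. Centred on all pairs, the median difference turned to 0.093 and the share lower in KO was 38.8%, by construction of the shift. Fewer peaks entering lowers counts by construction; other causes were not tested.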
